A study of Homo sapiens with 16 samples.

Results

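The 40 genes described here encode proteins that make ribosomes in the nucleolus. They were chosen by name: every row of the count tables whose GENCODE 29 symbol is on a list of 40 ribosome biogenesis and nucleolar genes, out of 58735 genes in all. All 40 symbols were found once. The rule used the names alone, although the list was drawn up with earlier results of these data known.

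The libraries came from a pair of human lines, MDA-MB-231 and SUM159PT, both derived from triple-negative breast cancer. In each line, cells labelled wild type were transfected with an siRNA against YES1, a tyrosine kinase of the Src family (siYES1). Their controls received an siRNA whose target is the luciferase of the firefly (siNS), and RNA was taken at 48 h. There were 4 libraries in each of the 4 groups (MDA-MB-231 siYES1, MDA-MB-231 siNS, SUM159PT siYES1 and SUM159PT siNS), 16 in all, and transfection was by lipofection. The submitters call the 4 libraries of a group technical replicates, so p-values here measure only the spread between such samples. Effects of the siRNA sequence on other transcripts cannot be told apart from the loss of YES1.

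Ribosomes are assembled around ribosomal RNA that RNA polymerase I transcribes in the nucleolus. Small nucleolar ribonucleoproteins (snoRNPs) then modify the precursor, box C/D particles by methylation and box H/ACA particles by pseudouridylation, while separate sets of assembly factors fold, cleave and trim the small and the large subunit. Genes of this pathway are often raised in growing and in cancer cells, and many are textbook targets of MYC, a transcription factor that binds the E-box.

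Library totals ran from 15680459 to 23451253 counts, and the 40 genes took 0.436 to 0.619% of them. YES1 was at 13.8 ± 0.82 CPM (counts scaled to a common library size) in siYES1 and 63.2 ± 6.16 CPM in siNS libraries of MDA-MB-231, and at 17.2 ± 1.80 CPM in siYES1 and 134 ± 23.8 CPM in siNS libraries of SUM159PT (SD, n = 4 each). Mean ESR1 and PGR were at most 0.504 and 0.0296 CPM in any group, VIM was at least 489 CPM and KRT18 at least 62.0 CPM, while CDH1 was at most 0.883 CPM in any group and EPCAM at most 0.632 CPM in SUM159PT. Summed markers of leukocytes were 1.52 to 2.61 CPM in siYES1 and 7.84 to 10.1 CPM in siNS libraries of MDA-MB-231, and 0.374 to 1.27 CPM in siYES1 and 3.37 to 5.33 CPM in siNS libraries of SUM159PT. Summed endothelial markers were 2.44 to 4.45 CPM in siYES1 and 4.59 to 9.25 CPM in siNS libraries of MDA-MB-231, and 0.267 to 0.476 CPM in siYES1 and 1.71 to 3.21 CPM in siNS libraries of SUM159PT, and adipocyte markers, with ADIPOQ at 0, summed to at most 4.62 CPM in any library. Summed breast epithelial markers were 1127 to 1159 CPM in siYES1 and 752 to 984 CPM in siNS libraries of MDA-MB-231, and 175 to 186 CPM in siYES1 and 288 to 353 CPM in siNS libraries of SUM159PT. The part of these levels in the results was not tested. Among the SUM159PT libraries, siNS replicate 1 stood apart (39.8 on the second principal component, against -27.7 to -10.1 in the other 3 siNS libraries), and SUM159PT results are therefore also given without it. The siNS libraries of MDA-MB-231 were also split, with replicates 1 and 2 at 14.2 and 17.3 on that component and replicates 3 and 4 at -15.2 and -16.5.

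In MDA-MB-231, genes of several steps of the pathway were higher in siYES1 libraries: 18 of the 39 genes tested (46.2%) rose and 0 fell, where 24.9% of all genes rose and 27.5% fell. The largest increase was that of DKC1, the pseudouridine synthase of box H/ACA snoRNPs, at 2.30-fold, followed by LYAR at 1.87-fold and NIP7 at 1.54-fold. In SUM159PT 9 of 40 (22.5%) rose and 2 fell, where 17.7% of all genes rose and 19% fell, and without siNS replicate 1 16 rose and 2 fell, where 21% of all genes rose and 21.5% fell. In both lines DKC1 was the member with the largest increase. UTP4, NOP58, NOP56, LYAR, RRP9 and DKC1 differed between the lines, with the smaller or negative change in SUM159PT (15% of 40, against 8.85% of all genes). GNL3 and DDX10 differed the other way (5%, against 15.4% of all genes). The call of DDX10 was lost when any 1 of 11 of the 16 libraries was left out.

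A rise or fall means an adjusted p under 0.05 in edgeR's quasi-likelihood test, with the Benjamini-Hochberg adjustment over all genes tested. Under that rule 24.9% of the 14319 genes tested in MDA-MB-231 rose and 27.5% fell, so a call alone was common. Of the 39 members, the median log2 fold change was 0.23 against 0.00 over all genes, and 32 had a positive and 7 a negative value. At an unadjusted p under 0.05, 23 were higher and 0 lower in edgeR, and at an adjusted p under 0.05 DESeq2 and limma-voom each called 21 higher and 0 lower. All 4 siYES1 libraries lay above all 4 siNS libraries in 19 members, which compares with 22.4% of all genes. NOP2, a methyltransferase of large-subunit rRNA, was too low to be tested there. In bulk RNA, more RNA per cell and more cells with high levels cannot be told apart.

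**Figure D1:**
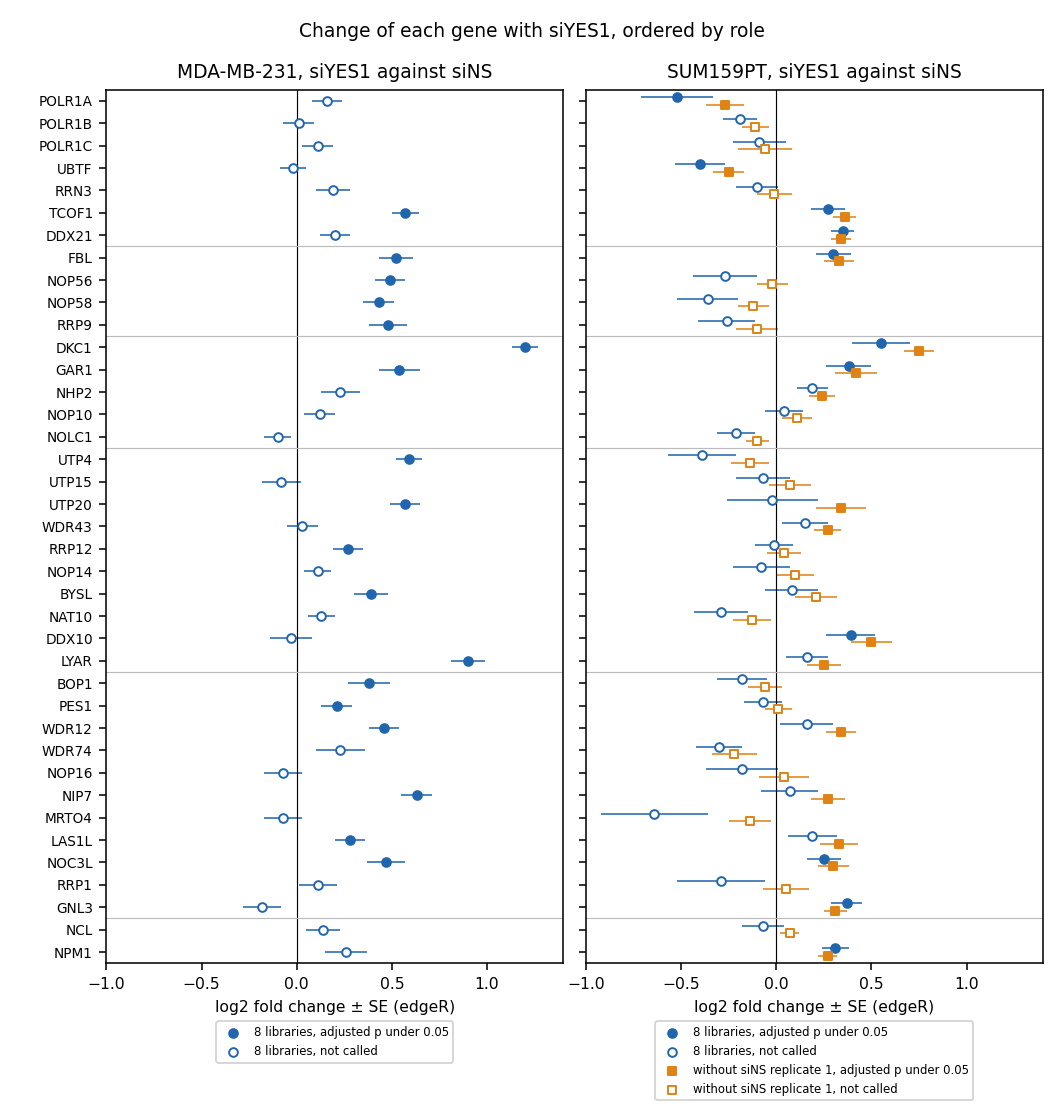
Log2 fold change of each gene with siYES1 against siNS, with an SE derived from edgeR's F statistic, in MDA-MB-231 (left) and SUM159PT (right). Genes run down the page by role, from RNA polymerase I factors to NCL and NPM1, filled points passed the test, and squares leave out SUM159PT siNS replicate 1. NOP2, which was not tested in MDA-MB-231, is not drawn. The filled points lie to the right of 0 in MDA-MB-231, and 2 of those in SUM159PT (POLR1A and UBTF) lie to the left.

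Promoter sequences are shown for DKC1, which had the largest increase in both lines, for UTP4, LYAR and RRP9, whose change differed between the lines toward a larger rise in MDA-MB-231, and for GNL3, whose difference ran the other way. Each window runs from 250 bases before to 50 bases after the annotated start (RefSeq, GRCh38.p14, 5′ to 3′ on the gene's strand), and capitals mark the E-box letters CACGTG, which read the same on both strands. In GENCODE 29 (GRCh38) the genes span chrX:154762742-154777689 (+) for DKC1 (ENSG00000130826), chr16:69131291-69231130 (+) for UTP4 (ENSG00000141076), chr4:4267701-4290169 (-) for LYAR (ENSG00000145220), chr3:51933430-51941941 (-) for RRP9 (ENSG00000114767) and chr3:52681156-52694492 (+) for GNL3 (ENSG00000163938). RefSeq starts can lie inside these spans. LYAR and GNL3 have 2 windows each, and for them a window that holds CACGTG was taken for display. The E-boxes shown for these genes were therefore set by that choice. The windows are chrX:154762614-154762913 (+) for DKC1, chr16:69132399-69132698 (+) for UTP4, chr4:4289972-4290271 (-) for LYAR, chr3:51941855-51942154 (-) for RRP9 and chr3:52685782-52686081 (+) for GNL3.
DKC1: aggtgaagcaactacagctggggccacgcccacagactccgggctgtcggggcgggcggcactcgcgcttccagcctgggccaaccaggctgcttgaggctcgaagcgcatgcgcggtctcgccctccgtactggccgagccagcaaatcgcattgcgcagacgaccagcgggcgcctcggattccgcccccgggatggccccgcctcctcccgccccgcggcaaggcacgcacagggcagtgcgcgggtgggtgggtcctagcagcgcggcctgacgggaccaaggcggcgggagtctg
UTP4: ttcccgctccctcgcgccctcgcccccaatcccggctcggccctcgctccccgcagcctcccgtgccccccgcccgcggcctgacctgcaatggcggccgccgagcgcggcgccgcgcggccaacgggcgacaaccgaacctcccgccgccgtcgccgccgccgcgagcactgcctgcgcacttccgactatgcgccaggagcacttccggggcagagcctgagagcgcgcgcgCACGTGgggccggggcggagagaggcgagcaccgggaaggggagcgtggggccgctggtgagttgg
LYAR: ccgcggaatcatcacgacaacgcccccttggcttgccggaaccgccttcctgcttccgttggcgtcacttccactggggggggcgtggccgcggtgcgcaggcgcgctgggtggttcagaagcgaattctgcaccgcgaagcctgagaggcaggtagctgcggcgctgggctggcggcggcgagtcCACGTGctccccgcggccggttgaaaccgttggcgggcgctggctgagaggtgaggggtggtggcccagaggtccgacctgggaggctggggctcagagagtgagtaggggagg
RRP9: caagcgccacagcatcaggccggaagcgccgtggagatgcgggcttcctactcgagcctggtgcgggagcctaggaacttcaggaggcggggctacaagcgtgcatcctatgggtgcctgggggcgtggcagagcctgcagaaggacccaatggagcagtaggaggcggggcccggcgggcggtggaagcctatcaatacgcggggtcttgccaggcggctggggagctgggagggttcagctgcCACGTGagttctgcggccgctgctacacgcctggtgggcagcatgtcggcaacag
GNL3: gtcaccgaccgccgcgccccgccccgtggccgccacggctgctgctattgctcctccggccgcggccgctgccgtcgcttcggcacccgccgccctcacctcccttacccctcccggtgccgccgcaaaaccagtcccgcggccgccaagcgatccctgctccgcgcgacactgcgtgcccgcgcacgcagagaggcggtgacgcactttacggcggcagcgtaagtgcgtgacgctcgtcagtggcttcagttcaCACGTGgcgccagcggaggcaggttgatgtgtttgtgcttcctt
The E-box begins 16 bases before the start in UTP4, 64 bases before it in LYAR and 5 bases before it in RRP9. In GNL3 it begins at base 7, counting the start as base 1, and the letters are not in the DKC1 window. Of the other genes whose change differed between the lines, NOP56 and DDX10 have windows that hold neither these letters nor the other set searched, so the sequences shown are not typical of all 8, and NOP58 is named only. Windows were found for 35 of the 40 members, and 17 of them (48.6%) held CACGTG in at least 1 window. The letters were in 7.26% of all 35116 windows and in 12.7% of 9735 genes at a mean of at least 1 CPM in SUM159PT. The other letters searched, CCGGAAG on either strand, the core that ETS factors recognise, were in 14 of the 35 members (40%), in 10.3% of all windows and in 22.6% of the expressed genes. CACGTG was in 9 of the 14 members with a window that rose in MDA-MB-231 and in 8 of the 21 others. Such matches describe the letters only, and binding was not measured.

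Among the 7 genes of RNA polymerase I transcription, 1 rose in MDA-MB-231 (median log2 0.16), and 2 rose and 2 fell in SUM159PT (median -0.10), also without siNS replicate 1. The 14.3% that rose in MDA-MB-231 lies below the 24.9% of all genes, and the 28.6% in each direction in SUM159PT stands beside 17.7% higher and 19% lower. POLR1A, the largest subunit of the enzyme, was at 75.1, 59.9, 76.6 and 80.4 CPM in SUM159PT siYES1 libraries, against 155, 71.3, 90.4 and 100 CPM in siNS libraries. It fell by 0.52 ± 0.19 on the log2 scale (adjusted p = 0.0463), and siNS replicate 2 lay among the siYES1 libraries. Without siNS replicate 1 it fell by 0.27 ± 0.10 (adjusted p = 0.045). In MDA-MB-231 POLR1A was at 216, 204, 188 and 178 CPM in siYES1 libraries, against 175, 166, 178 and 185 CPM in siNS libraries, a log2 fold change of 0.16 ± 0.08 that did not pass the test (adjusted p = 0.0834).

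UBTF, which binds the ribosomal DNA promoter and keeps it open, was at 68.0, 61.7, 77.1 and 70.3 CPM in SUM159PT siYES1 libraries, against 121, 74.3, 85.2 and 86.0 CPM in siNS libraries. It fell by 0.40 ± 0.13 on the log2 scale (adjusted p = 0.0297), and by 0.25 ± 0.08 without siNS replicate 1 (adjusted p = 0.0192). In MDA-MB-231 it was between 144 and 154 CPM in siYES1 libraries and between 139 and 167 CPM in siNS libraries, with a log2 fold change of -0.02 ± 0.07 and overlapping groups (adjusted p = 0.846). TCOF1, the treacle protein that serves ribosomal DNA transcription, rose in both lines, by 0.57 ± 0.07 in MDA-MB-231 (adjusted p = 6.11e-06) and 0.27 ± 0.09 in SUM159PT (adjusted p = 0.0346) on the log2 scale, where it was 0.36 ± 0.06 without siNS replicate 1 (adjusted p = 0.000136). DDX21, an RNA helicase of ribosomal DNA transcription, was at 517, 491, 503 and 514 CPM in SUM159PT siYES1 libraries, against 401, 398, 397 and 398 CPM in siNS libraries. All siYES1 libraries of DDX21 lay above all siNS libraries there, a rise of 0.35 ± 0.06 (adjusted p = 0.000569), or 0.34 ± 0.05 without siNS replicate 1 (adjusted p = 1.29e-05). In MDA-MB-231 its value was 0.20 ± 0.08 and did not pass (adjusted p = 0.0557). POLR1B, POLR1C and RRN3 (the second subunit, a subunit shared with RNA polymerase III and the initiation factor that links enzyme and promoter) had log2 values of 0.01, 0.11 and 0.19 in MDA-MB-231 and of -0.19, -0.09 and -0.10 in SUM159PT, or -0.11, -0.06 and -0.01 without siNS replicate 1, and none passed.

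All 4 genes of the box C/D snoRNP proteins rose in MDA-MB-231 (24.9% of all genes rose there), with a median log2 fold change of 0.49. In SUM159PT 1 of 4 rose (25%, against 17.7% of all genes), also without siNS replicate 1 (25%, against 21%). FBL, the methyltransferase of the particle, was at 194, 198, 210 and 235 CPM in siYES1 libraries, against 127, 166, 148 and 143 CPM in siNS libraries of that line, a log2 rise of 0.52 ± 0.09 (adjusted p = 0.000107). In SUM159PT FBL was between 150 and 168 CPM in siYES1 libraries, against 137, 144, 115 and 117 CPM in siNS libraries, a rise of 0.30 ± 0.09 (adjusted p = 0.0165), or 0.33 ± 0.08 without siNS replicate 1 (adjusted p = 0.00151). The groups did not overlap in either line.

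NOP56, NOP58 and RRP9 rose in MDA-MB-231 but did not pass in SUM159PT, where their values were below 0. NOP56, a core scaffold of the particle, was at 66.0, 72.0, 77.6 and 67.2 CPM in SUM159PT siYES1 libraries, against 127, 66.2, 73.4 and 73.5 CPM in siNS libraries. That value of -0.27 ± 0.17 did not pass (adjusted p = 0.246), the groups overlapped, and with siNS replicate 1 left out it was -0.02 ± 0.08 (adjusted p = 0.896). In MDA-MB-231 NOP56 was at 200, 194, 209 and 227 CPM in siYES1 libraries, against 141, 165, 138 and 146 CPM in siNS libraries, a log2 rise of 0.49 ± 0.08 without overlap (adjusted p = 5.6e-05). Differences between the lines come from a fit of all 16 libraries scaled together, so they need not equal those of the values printed for each line. In that fit the change of NOP56 in SUM159PT minus that in MDA-MB-231 was -0.66 ± 0.20 (adjusted p = 0.017). It was -0.47 ± 0.11 without SUM159PT siNS replicate 1 (adjusted p = 0.00245). SnoRNA genes lie within the NOP56 locus and cover 8.7% of its exon bases.

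NOP58, the partner scaffold, was at 49.3, 50.7, 52.9 and 51.3 CPM in SUM159PT siYES1 libraries, against 96.5, 56.5, 53.0 and 55.9 CPM in siNS libraries. There all 4 siYES1 libraries lay below all siNS libraries, by a narrow margin for siNS replicate 3, and the value of -0.36 ± 0.16 did not pass the test (adjusted p = 0.104). With siNS replicate 1 left out it was -0.12 ± 0.08 (adjusted p = 0.239). In MDA-MB-231 NOP58 was at 85.0, 94.8, 92.9 and 97.4 CPM in siYES1 libraries, against 69.4, 78.3, 64.8 and 62.1 CPM in siNS libraries, a log2 rise of 0.43 ± 0.08 without overlap (adjusted p = 0.000417). The difference between the lines was -0.69 ± 0.19 (adjusted p = 0.0119), and -0.51 ± 0.11 without SUM159PT siNS replicate 1 (adjusted p = 0.00159). RRP9, a protein of the U3 particle, was at 22.3, 24.2, 23.1 and 21.3 CPM in SUM159PT siYES1 libraries, against 36.0, 24.2, 21.5 and 27.0 CPM in siNS libraries, with overlap and a value of -0.26 ± 0.15 (adjusted p = 0.195), which was -0.10 ± 0.11 with siNS replicate 1 left out (adjusted p = 0.517). In MDA-MB-231 RRP9 was at 64.0, 68.2, 64.2 and 66.3 CPM in siYES1 libraries, against 36.5, 48.4, 50.5 and 53.1 CPM in siNS libraries, a rise of 0.48 ± 0.10 (adjusted p = 0.000724), and the groups did not overlap. The lines differed for RRP9 by -0.64 ± 0.18 (adjusted p = 0.014), and by -0.54 ± 0.15 without SUM159PT siNS replicate 1 (adjusted p = 0.00864).

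Of the 5 genes of box H/ACA snoRNPs, DKC1 and GAR1 rose in both lines, and 3 rose in SUM159PT without siNS replicate 1. These are 40% in MDA-MB-231 (24.9% of all genes), 40% in SUM159PT (17.7%) and 60% without that library (21%). DKC1 was at 99.9, 101, 92.7 and 91.2 CPM in SUM159PT siYES1 libraries, against 91.9, 50.5, 57.1 and 63.5 CPM in siNS libraries. All siNS libraries but replicate 1 lay below every siYES1 library. The rise was 0.55 ± 0.15 (adjusted p = 0.0108), and 0.75 ± 0.08 without that library (adjusted p = 4.16e-07). In MDA-MB-231 DKC1 was at 174, 178, 187 and 184 CPM in siYES1 libraries, against 72.4, 76.8, 83.8 and 80.7 CPM in siNS libraries. The log2 rise was 1.20 ± 0.07 (adjusted p = 1.15e-09), and the groups lay far apart. In the fit of all 16 libraries the change in SUM159PT minus that in MDA-MB-231 was -0.56 ± 0.17 (adjusted p = 0.0208). It was -0.42 ± 0.11 without SUM159PT siNS replicate 1 (adjusted p = 0.00573).

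GAR1, a core protein that helps release the modified RNA, was at 51.7, 56.7, 70.2 and 75.7 CPM in MDA-MB-231 siYES1 libraries, against 41.6, 51.1, 42.0 and 40.4 CPM in siNS libraries. The log2 rise was 0.54 ± 0.11 (adjusted p = 0.000862), and siYES1 replicate 1 lay just above siNS replicate 2. In SUM159PT GAR1 was at 30.9, 30.9, 33.1 and 30.6 CPM in siYES1 libraries, against 26.7, 26.3, 24.6 and 19.0 CPM in siNS libraries, a rise of 0.38 ± 0.12 (adjusted p = 0.025), or 0.42 ± 0.11 without siNS replicate 1 (adjusted p = 0.00566). NHP2 and NOP10, the other small core proteins, had log2 values of 0.23 and 0.12 in MDA-MB-231 and of 0.19 and 0.04 in SUM159PT that did not pass. Without siNS replicate 1 the value of NHP2 in SUM159PT was 0.24 and passed (adjusted p = 0.00699), and that of NOP10 was 0.11. In MDA-MB-231 NHP2 passed without siNS replicate 3 (0.29, adjusted p = 0.0305) or 4 (0.29, adjusted p = 0.0251). It also passed there with RLE scaling, no filter on low counts or a replicate block, and in DESeq2 (adjusted p = 0.0431) and limma-voom (adjusted p = 0.0482). Of the exon bases of NHP2, 27.4% overlap RMND5B on the other strand, and the strand setting of the counting is not given. NOLC1, a chaperone that carries snoRNPs in the nucleolus, had -0.10 in MDA-MB-231 and -0.21 in SUM159PT, or -0.10 there without siNS replicate 1, and did not pass.

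**Figure D2:**
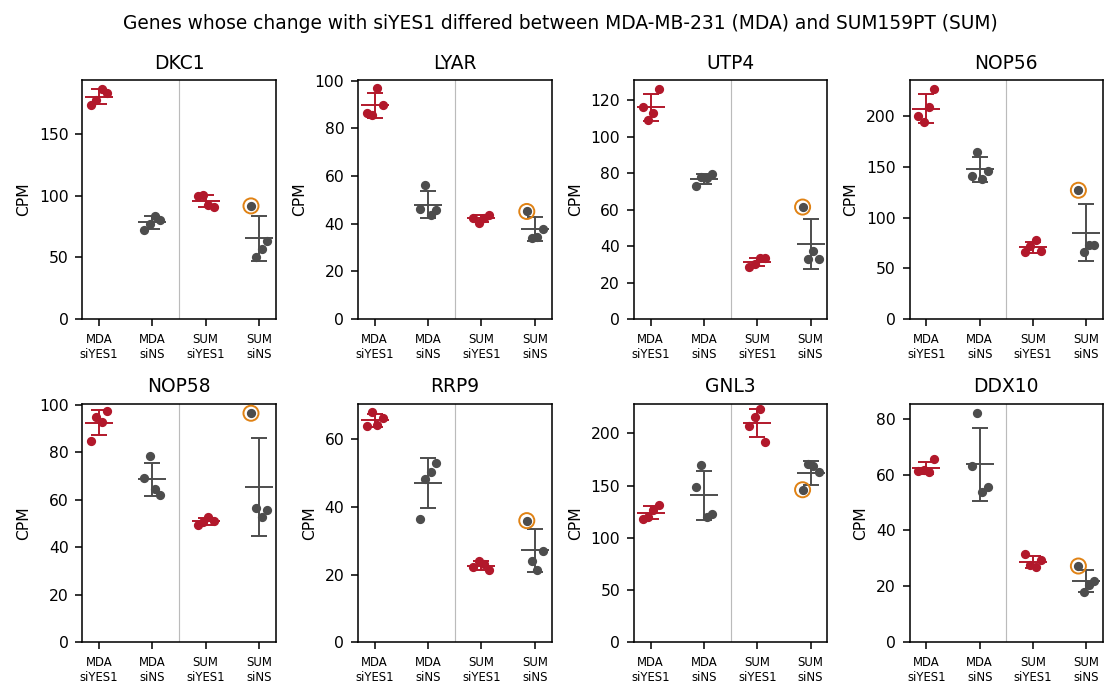
CPM of the 8 genes whose change with siYES1 differed between the lines (edgeR interaction test), with siYES1 in red, siNS in grey, 1 point per library, and bars for the mean ± SD (n = 4). The orange ring marks SUM159PT siNS replicate 1. DKC1 shows the widest gap between siYES1 and siNS in MDA-MB-231, while GNL3 is higher with siYES1 in SUM159PT.

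Small-subunit factors rose in 5 of 10 cases in MDA-MB-231 (24.9% of all genes rose there) and in 1 of 10 in SUM159PT (17.7% of all genes), or in 4 of 10 without siNS replicate 1 (21% of all genes). LYAR, a zinc-finger protein of the nucleolus, was at 42.5, 40.2, 42.5 and 43.7 CPM in SUM159PT siYES1 libraries, against 45.1, 33.9, 34.2 and 37.8 CPM in siNS libraries. That value of 0.16 ± 0.11 did not pass (adjusted p = 0.257), and without siNS replicate 1, the highest library, it was 0.25 ± 0.09 and passed (adjusted p = 0.028). In MDA-MB-231 LYAR was at 86.3, 85.6, 96.9 and 89.8 CPM in siYES1 libraries, against 46.1, 56.3, 43.7 and 45.8 CPM in siNS libraries, a log2 rise of 0.90 ± 0.09 without overlap (adjusted p = 2.99e-07). The lines differed by -0.64 ± 0.14 (adjusted p = 0.00179), and by -0.61 ± 0.12 without SUM159PT siNS replicate 1 (adjusted p = 0.000509).

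UTP4, a subunit of the first complex to join the precursor, was at 28.8, 30.1, 33.2 and 33.5 CPM in SUM159PT siYES1 libraries, against 61.4, 32.9, 37.4 and 32.9 CPM in siNS libraries. The groups overlapped and the value of -0.39 ± 0.18 did not pass (adjusted p = 0.105), nor did that of -0.14 ± 0.10 with siNS replicate 1 left out (adjusted p = 0.278). In MDA-MB-231 UTP4 was at 116, 109, 113 and 126 CPM in siYES1 libraries, against 73.0, 78.0, 77.1 and 79.4 CPM in siNS libraries, and it rose by 0.59 ± 0.07 on the log2 scale without overlap (adjusted p = 3.57e-06). UTP4 had the largest negative difference between the lines among the members that passed, -0.88 ± 0.20 (adjusted p = 0.00213), and -0.69 ± 0.11 without SUM159PT siNS replicate 1 (adjusted p = 5.22e-05).

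DDX10, a helicase that frees the U14 snoRNA in yeast, rose in SUM159PT and not in MDA-MB-231. It was at 31.5, 27.5, 26.8 and 29.3 CPM in SUM159PT siYES1 libraries, against 27.3, 17.9, 20.6 and 22 CPM in siNS libraries, a log2 rise of 0.39 ± 0.13 (adjusted p = 0.0341) in which siNS replicate 1 overlapped. With that library left out it was 0.50 ± 0.11 (adjusted p = 0.00115). In MDA-MB-231 DDX10 was at 61.2, 61.6, 61.0 and 65.4 CPM in siYES1 libraries, against 63.1, 82.1, 53.6 and 55.5 CPM in siNS libraries, with a value of -0.03 ± 0.11 (adjusted p = 0.837). Its siNS replicates 1 and 2, which lay apart from replicates 3 and 4 on the second principal component, were the higher ones, and without both the value was 0.19 and passed (adjusted p = 0.0174). The difference between the lines was 0.52 ± 0.18 (adjusted p = 0.0393), and 0.57 ± 0.16 without SUM159PT siNS replicate 1 (adjusted p = 0.0102). Its call was lost when any 1 of 11 of the 16 libraries was left out, with adjusted p between 0.0102 and 0.0956 over all 16. Those 11 were MDA-MB-231 siYES1 replicates 1, 2 and 3, MDA-MB-231 siNS replicates 1 and 2, SUM159PT siYES1 replicates 1, 2 and 4 and SUM159PT siNS replicates 2, 3 and 4. With all 16 libraries the call of DDX10 was also lost under RLE or total-count scaling, TMM within each line, and DESeq2.

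UTP20, BYSL and RRP12, which act in early and late small-subunit assembly, rose in MDA-MB-231 by 0.57, 0.39 and 0.27 on the log2 scale, and none of them passed in SUM159PT with all libraries. There BYSL had 0.08 and RRP12 -0.01, or 0.21 and 0.04 without siNS replicate 1. UTP20 was at 23.3, 20, 26.6 and 26.3 CPM in SUM159PT siYES1 libraries, against 41.2, 15.7, 20.4 and 20.4 CPM in siNS libraries. Its value of -0.02 ± 0.24 (adjusted p = 0.954) turned to a rise of 0.34 ± 0.13 without siNS replicate 1 (adjusted p = 0.0422). UTP15 and WDR43, subunits of the UTP4 complex, NOP14, a core factor, and NAT10, the acetyltransferase of small-subunit RNA, had values of -0.08, 0.03, 0.11 and 0.13 in MDA-MB-231 and of -0.07, 0.15, -0.08 and -0.29 in SUM159PT, and none passed. With siNS replicate 1 left out WDR43 rose by 0.27 ± 0.07 in SUM159PT (adjusted p = 0.0043), and UTP15, NOP14 and NAT10 had 0.07, 0.10 and -0.13.

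Of the 11 large-subunit factors tested in MDA-MB-231 6 rose (54.5%, against 24.9% of all genes), and of the 12 tested in SUM159PT 2 rose (16.7%, against 17.7% of all genes), or 5 without siNS replicate 1 (41.7%, against 21%). NIP7, which acts in late nuclear assembly, was at 57.6, 57.1, 62.8 and 63.6 CPM in MDA-MB-231 siYES1 libraries, against 36.7, 37.4, 41.3 and 41.0 CPM in siNS libraries, a log2 rise of 0.63 ± 0.08 without overlap (adjusted p = 5.53e-06). In SUM159PT NIP7 was at 34.6, 37.5, 40.8 and 39.4 CPM in siYES1 libraries, against 50.5, 32.9, 31.3 and 30.2 CPM in siNS libraries. With siNS replicate 1 the value was 0.07 ± 0.15 (adjusted p = 0.744), and without it NIP7 rose by 0.27 ± 0.09 (adjusted p = 0.0287). For NIP7 20.2% of the exon bases overlap COG8 on the other strand. WDR12, BOP1 and PES1, which form a complex on the large-subunit precursor, rose in MDA-MB-231 by 0.46, 0.38 and 0.21, and had values of 0.16, -0.18 and -0.07 in SUM159PT that did not pass. These were, without siNS replicate 1, 0.34, which passed for WDR12 (adjusted p = 0.00314), -0.06 and 0.01. The call of PES1 (adjusted p = 0.0409) was lost without siNS replicate 1 or any 1 of the siYES1 replicates, with adjusted p up to 0.111. NOC3L, which moves precursors toward the nuclear pores in yeast, rose in MDA-MB-231 by 0.47 and in SUM159PT by 0.25, or 0.30 without siNS replicate 1. LAS1L, part of the enzyme that cleaves the second internal spacer, rose in MDA-MB-231 by 0.28 and had 0.19 in SUM159PT, where it rose by 0.33 without siNS replicate 1 (adjusted p = 0.0103). In a fit of all 16 libraries together, RRP12, BOP1, PES1 and LAS1L did not pass in MDA-MB-231, at adjusted p = 0.0729, 0.0508, 0.2 and 0.101.

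GNL3 (nucleostemin), a GTPase that shuttles between nucleolus and nucleoplasm, rose in SUM159PT and not in MDA-MB-231. It was at 207, 216, 223 and 192 CPM in SUM159PT siYES1 libraries, against 146, 171, 169 and 163 CPM in siNS libraries, a log2 rise of 0.37 ± 0.08 without overlap (adjusted p = 0.00248), or 0.31 ± 0.06 without siNS replicate 1 (adjusted p = 0.000436). In MDA-MB-231 GNL3 was at 118, 120, 127 and 131 CPM in siYES1 libraries, against 170, 120 and 123 CPM in siNS replicates 2, 3 and 4, with replicate 1 between them, a value of -0.18 ± 0.10 that did not pass (adjusted p = 0.131). It passed there as a fall of 0.25 without siNS replicate 3 (log2 -0.25, adjusted p = 0.0442). Without siNS replicates 3 and 4 together, a setting chosen after the data were seen, the value of GNL3 was -0.36 (adjusted p = 0.00123). The difference between the lines was 0.65 ± 0.13 (adjusted p = 0.00126), and 0.53 ± 0.13 without SUM159PT siNS replicate 1 (adjusted p = 0.00278).

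The other large-subunit factors did not pass in the fit of either line on its 8 libraries. WDR74, NOP16, MRTO4 and RRP1 had values of 0.23, -0.07, -0.07 and 0.11 in MDA-MB-231 and of -0.30, -0.18, -0.64 and -0.29 in SUM159PT. Without siNS replicate 1 the SUM159PT values were -0.22 for WDR74, 0.04 for NOP16, -0.14 for MRTO4 and 0.05 for RRP1, so those of NOP16 and RRP1 changed sign. WDR74 passed in MDA-MB-231 with no filter on low counts (0.25, adjusted p = 0.039) and without siNS replicate 4 (0.35, adjusted p = 0.0326). In SUM159PT it passed as a fall with total counts as the scaling (-0.48, adjusted p = 0.0132). MRTO4, which prepares the site of the ribosomal stalk, was at 22.2, 23.3, 25.0 and 25.4 CPM in SUM159PT siYES1 libraries, against 71.0, 25.5, 24.7 and 28.9 CPM in siNS libraries. The siNS replicate 1 was far above the other 7 libraries, and the value without it did not pass (adjusted p = 0.307). With that library kept, MRTO4 passed as a fall in the joint fit (-0.60, adjusted p = 0.0394) and with no filter (-0.63, adjusted p = 1.84e-05). It also passed with total counts (-0.83, adjusted p = 0.0455) and without siNS replicate 2 (-0.78, adjusted p = 0.0397) or 3 (-0.80, adjusted p = 0.0499). NOP2 lay between 0.0544 and 1.03 CPM in all 16 libraries. Of its exon bases, 54.4% lie in AC006064.6 on the same strand, a gene with 0 counts in every library, so the counts of NOP2 are uncertain.

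NPM1 and NCL, abundant nucleolar chaperones of ribosome assembly, had the highest CPM of the set. NPM1 was at 1594, 1485, 1512 and 1451 CPM in SUM159PT siYES1 libraries, against 1134, 1317, 1244 and 1175 CPM in siNS libraries, a log2 rise of 0.31 ± 0.07 without overlap (adjusted p = 0.00254), or 0.27 ± 0.05 without siNS replicate 1 (adjusted p = 0.00022). With total counts NPM1 did not pass in SUM159PT (0.14, adjusted p = 0.0544). In MDA-MB-231 NPM1 was at 1092, 1111, 1221 and 1316 CPM in siYES1 libraries, against 1107, 1204, 822 and 818 CPM in siNS libraries, with overlap and a value of 0.26 ± 0.11 (adjusted p = 0.0618). It passed there without siNS replicate 1 (0.33, adjusted p = 0.0303) or replicate 2 (0.37, adjusted p = 0.00565), with no filter on low counts (adjusted p = 0.00239), in DESeq2 (adjusted p = 0.0417) and in limma-voom (adjusted p = 0.0479). Without siNS replicates 1 and 2 together, a setting chosen after the data were seen, NPM1 rose there by 0.53 (adjusted p = 3.6e-07). It did not pass without replicates 3 and 4 together. GENCODE names 45 pseudogenes of NPM1, and how reads shared with them were counted is not known. NCL was at 643, 663, 715 and 736 CPM in MDA-MB-231 siYES1 libraries, against 642, 735, 571 and 563 CPM in siNS libraries (0.14 ± 0.09, adjusted p = 0.204), and it passed without siNS replicate 2 (0.22, adjusted p = 0.0191). Without siNS replicates 1 and 2 together NCL rose there by 0.28 (adjusted p = 0.000196), and it did not pass without replicates 3 and 4 together. In SUM159PT NCL was at 555, 558, 589 and 579 CPM in siYES1 libraries, against 765, 550, 549 and 525 CPM in siNS libraries (-0.07 ± 0.11, adjusted p = 0.664), or 0.07 ± 0.05 without siNS replicate 1 (adjusted p = 0.298). The siYES1 and siNS libraries of NCL overlapped in both lines.

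Levels between genes were compared per kilobase of exon (CPM per kilobase). NPM1 was the highest in every group, at 310 ± 27.1 in siYES1 and 258 ± 51.6 in siNS libraries of MDA-MB-231, and at 395 ± 16 in siYES1 and 318 ± 21.1 in siNS libraries of SUM159PT (SD, n = 4). NOP10 followed with means of 138 and 127 in siYES1 and siNS libraries of MDA-MB-231 and of 121 and 118 in siYES1 and siNS libraries of SUM159PT. The median over the 40 genes was 20.8 in siYES1 and 18.9 in siNS libraries of MDA-MB-231, and 11.2 in siYES1 and 12.4 in siNS libraries of SUM159PT.

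In SUM159PT the 9 rises were DKC1, DDX10, GAR1, GNL3, DDX21, NPM1, FBL, TCOF1 and NOC3L, 22.5% of 40, where 17.7% of the 14469 genes tested rose, and the 2 falls were 5% where 19% of genes fell. The median log2 fold change of the 40 genes was -0.07, against -0.03 over all genes. In 6 members every siYES1 library lay above every siNS library, which compares with 18.2% of all genes. DDX21, DKC1, GNL3 and NPM1 passed whichever library was left out, but DKC1 (0.37, adjusted p = 0.0954) and NPM1 (0.14, adjusted p = 0.0544) did not pass with total counts as the scaling. TCOF1 and NOC3L passed only if the library left out was siNS replicate 1, with adjusted p up to 0.0995 and 0.123 otherwise. FBL was lost without siNS replicate 3, siNS replicate 4 or siYES1 replicate 2 (adjusted p up to 0.0597), and GAR1 without siNS replicate 4 or siYES1 replicate 1, 2 or 3 (up to 0.0636). DDX10 was lost without siNS replicate 2, 3 or 4 or siYES1 replicate 1, 2 or 4 (up to 0.0979), POLR1A without siNS replicate 3 or 4 or any 1 siYES1 replicate (up to 0.137), and UBTF without siYES1 replicate 1, 2 or 4 (up to 0.096). The rises numbered 4 without siNS replicate 4 or siYES1 replicate 2, 5 without siNS replicate 3 or siYES1 replicate 1, and 6 without siNS replicate 2 or siYES1 replicate 3 or 4. The falls numbered 5 without siNS replicate 2, 1 without siNS replicate 4 or siYES1 replicate 3, and 0 without siYES1 replicate 1, 2 or 4.

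SUM159PT siNS replicate 1 was high for most of the set. It was the highest siNS library in 36 of the 40 genes (90.0%), against 36.4% of the 13186 genes at a mean of at least 1 CPM, and the highest of all 8 libraries in 29 (72.5%), against 25.9%. The ratio of its CPM to the mean of the other 3 siNS libraries had a median of 1.4 over the 40 genes and 0.988 over all those genes. MRTO4, UTP20 and RRP1 had the largest ratios, 2.69, 2.19 and 2.11, and GNL3 the smallest, 0.872. The same library had YES1 at 99.7 CPM, against 136 to 151 CPM in the other 3 siNS libraries, and the fewest counts of all 16 libraries. Whether these differences have a common source was not tested.

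**Figure D3:**
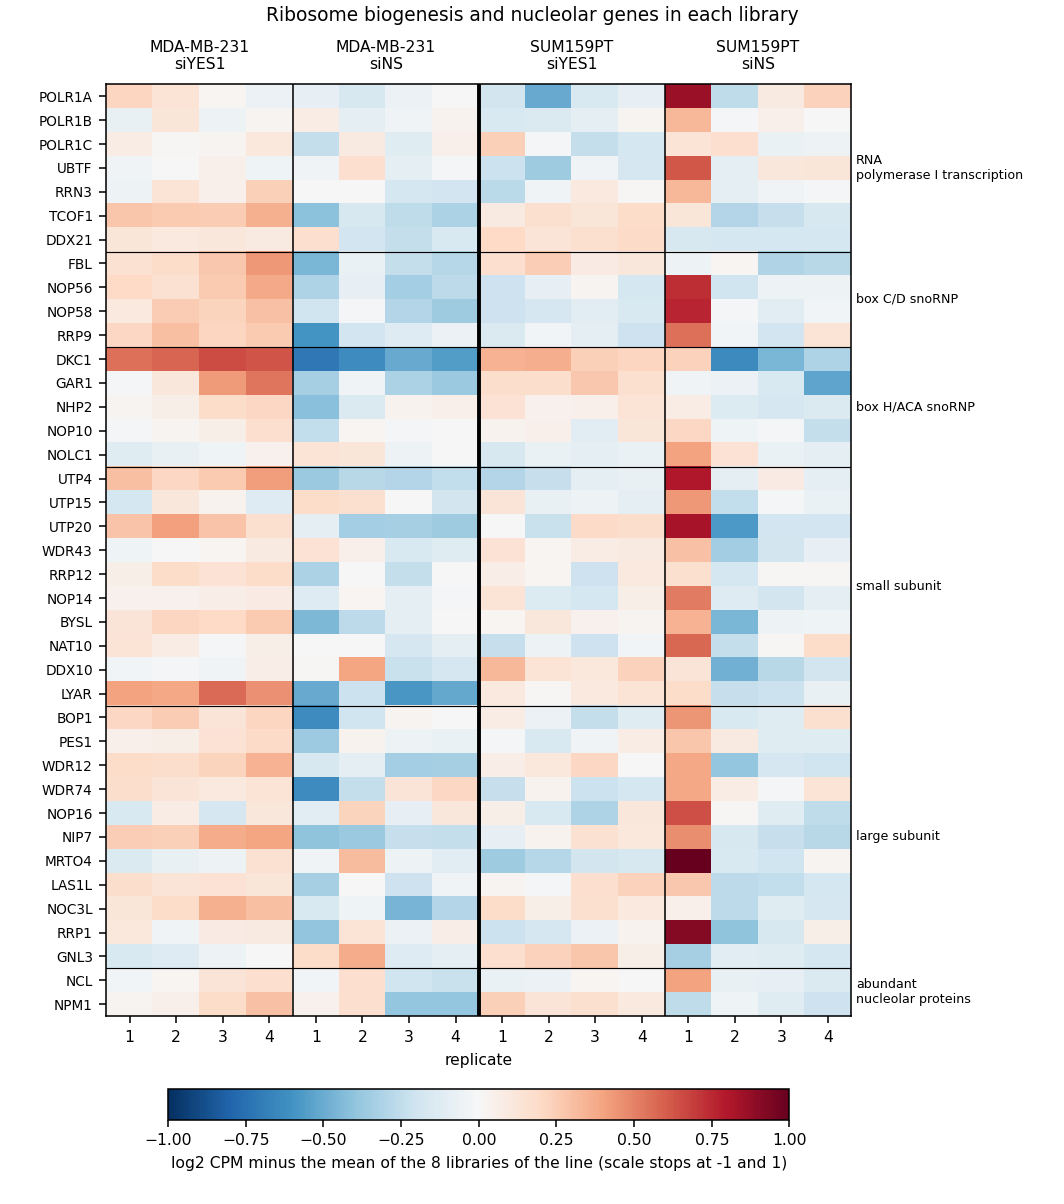
Log2 CPM of 39 genes (NOP2 left out) in each library, minus the mean of the 8 libraries of the line, with red above and blue below it; each column is 1 library and rows are grouped by role. The siYES1 columns of MDA-MB-231 are mostly red where their siNS columns are blue, and the column of SUM159PT siNS replicate 1 is red in most rows.

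Without siNS replicate 1, 16 members rose and 2 fell in SUM159PT, with 21% of all genes higher and 21.5% lower. Their median log2 fold change was 0.07. All 4 siYES1 libraries lay above the 3 siNS libraries in 17 members, which compares with 22.5% of all genes. LAS1L, LYAR, NHP2, NIP7, UTP20, WDR12 and WDR43 were the 7 rises added, by 0.24 to 0.34 on the log2 scale. Of the 18 genes that rose in MDA-MB-231, 10 had a positive and 8 a negative value in SUM159PT with all libraries (median 0.08), and 13 and 5 without siNS replicate 1 (median 0.26).

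DKC1, FBL, GAR1, NOC3L and TCOF1 rose in both lines, which is 27.8% of the 18 rises in MDA-MB-231 and 55.6% of the 9 in SUM159PT. Leaving out siNS replicate 1 made the count 10, 55.6% of the 18 and 62.5% of the 16. The same overlap was not counted over all genes, so these shares cannot be read as high or low. With total counts as the scaling and all libraries, none of DKC1, FBL, GAR1, NOC3L and TCOF1 passed in SUM159PT, at adjusted p = 0.0954, 0.274, 0.217, 0.608 and 0.498. Both the methyltransferase of box C/D particles and the pseudouridine synthase of box H/ACA particles are among the shared genes.

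Whether the change with siYES1 differed between the lines was tested as an interaction term in a fit of all 16 libraries. Of the 40 members, 2 had a more positive change in SUM159PT (GNL3 and DDX10), where 15.4% of the 16299 genes tested did, and 6 a more negative one (UTP4, NOP58, NOP56, LYAR, RRP9 and DKC1), where 8.85% of genes did. The median difference was -0.19 over the members and 0.03 over all genes. With TMM within each line in place of TMM over all 16 libraries, the medians were -0.29 and -0.07. Without SUM159PT siNS replicate 1 there were 2 and 7 with POLR1A added (-0.39 ± 0.14, adjusted p = 0.0422), against 13.3% and 10.5% of all genes, and the median was -0.14. Leaving out SUM159PT siNS replicate 2 gave 11 with a more negative change, and the more positive ones were GNL3 alone in the 11 leave-outs that ended the call of DDX10. Among the 4 box C/D members 3 differed and among the 12 large-subunit members 1.

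The summed CPM of the 40 genes was 5763, 5865, 6072 and 6327 in MDA-MB-231 siYES1 libraries, against 5025, 5542, 4704 and 4792 in siNS libraries. The mean was 6007 ± 249 in siYES1 and 5016 ± 376 in siNS libraries (SD, n = 4 each), a ratio of 1.20, and the groups did not overlap. In SUM159PT the sum was 4865, 4716, 4811 and 4768 in siYES1 libraries, against 5076, 4240, 4195 and 4149 in siNS libraries. There siNS replicate 1 was above every siYES1 library and the other 3 were below, and the ratio of means was 1.08, or 1.14 without it. With the 5 most abundant genes of each line left out, the mean sum in SUM159PT was 1849 ± 28 in siYES1 and 1873 ± 371 in siNS libraries. In that sum siNS replicate 1 had 2426, and the other 3 siNS libraries had 1634 to 1744, against 1819 to 1885 in siYES1 libraries. In MDA-MB-231 it was 3405 ± 114 in siYES1 and 2722 ± 172 in siNS libraries, a ratio of 1.25.

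**Figure D4:**
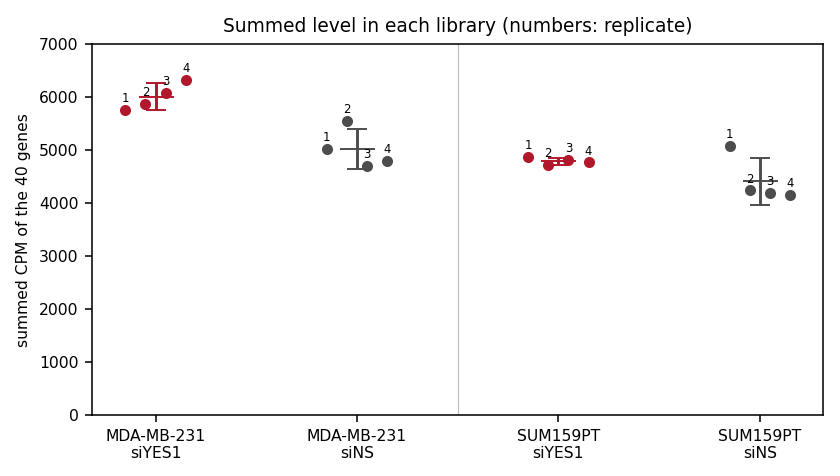
Summed CPM of the 40 genes in each library, with the replicate number above each point and bars for the mean ± SD (n = 4 each), siYES1 in red and siNS in grey. The MDA-MB-231 siYES1 libraries (5763 to 6327) lie above their siNS libraries (4704 to 5542), while SUM159PT siNS replicate 1 (5076) lies above all the other SUM159PT libraries.

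Directions in SUM159PT depended on the scaling. With total counts in place of TMM factors, the median of all genes there moved to -0.20 and that of the members to -0.24, 2 members rose and 9 fell, and of all genes called 25% were higher, against 48.2% with TMM. Relative to the median of all genes, the members' median was -0.04 in SUM159PT and 0.23 in MDA-MB-231 under TMM, RLE and total counts. The sum ratio in SUM159PT was 0.962 with total counts. For the difference between the lines, total counts put the median of all genes at -0.19 and that of the members at -0.42, with 1 member higher and 15 lower, while 33% of the genes called were higher, against 63.5% with TMM. RLE gave 55.1% and TMM within each line 49%.

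Other genes of the pathway, from lists outside the 40, were counted in the same fits. The shares of all genes to set beside these counts were 24.9% higher and 27.5% lower in MDA-MB-231, 17.7% higher and 19% lower in SUM159PT, and 21% higher and 21.5% lower there without siNS replicate 1. In MDA-MB-231 the nuclear exosome and rRNA nucleases had 10 of 17 genes (58.8%) higher and 0 lower (edgeR; 10 and 0 at an unadjusted p under 0.05), with a median log2 of 0.31. EXOSC8, a subunit of the exosome ring, rose by 0.70 ± 0.11 (adjusted p = 5.24e-05) and NOL9, a kinase of rRNA ends, by 0.53 ± 0.08 (adjusted p = 2.19e-05). In SUM159PT 4 of the 17 rose and 2 fell, and EXOSC2 fell by 0.69 ± 0.22 (adjusted p = 0.0269), or by 0.41 ± 0.14 without siNS replicate 1 (adjusted p = 0.0266), against a rise of 0.37 ± 0.08 in MDA-MB-231 (adjusted p = 0.000608). Other small-subunit genes numbered 15 higher (34.9%) and 2 lower of 43 in MDA-MB-231, led by NGDN at 0.72 ± 0.11 (adjusted p = 4.29e-05), and 6 higher and 6 lower of 42 in SUM159PT, where NGDN rose by 0.58 ± 0.14 (adjusted p = 0.00486), or 0.57 ± 0.14 without siNS replicate 1 (adjusted p = 0.00255). Other large-subunit genes numbered 13 higher (26.5%, near the share of all genes) and 3 lower of 49 in MDA-MB-231 and 1 higher and 2 lower in SUM159PT. RRS1, which brings the 5S particle into the precursor, rose by 0.70 ± 0.10 in MDA-MB-231 (adjusted p = 1.31e-05), and SBDS, which releases the factor that keeps subunits apart, fell by 0.36 ± 0.09 (adjusted p = 0.00348).

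Of 13 other snoRNP genes 5 (38.5%) rose in MDA-MB-231, where 24.9% of all genes did, and 1 rose and 2 fell in SUM159PT, where IMP3, a U3 protein, fell by 0.72 ± 0.14 (adjusted p = 0.00134), or by 0.63 ± 0.13 without siNS replicate 1 (adjusted p = 0.000503). Other genes on the opposite strand overlap 59.3% of the exon bases of IMP3, and the strand setting is not given, so its counts are uncertain. Of 15 other RNA polymerase I genes 2 (13.3%) rose in MDA-MB-231, led by POLR1E at 0.44 ± 0.09 (adjusted p = 0.000714). In SUM159PT ZNRD1, a subunit of the enzyme, rose by 0.62 ± 0.18 (adjusted p = 0.0148) and TAF1C, of the promoter selectivity factor, fell by 0.62 ± 0.13 (adjusted p = 0.00237). Both still passed without siNS replicate 1, at 0.60 and -0.54. Other genes overlap 24.5% of the exon bases of ZNRD1. Without siNS replicate 1, the counts in SUM159PT were 10 higher and 2 lower for the nucleases, 12 and 5 for the small subunit, 6 and 2 for the large subunit, 1 and 2 for snoRNP genes and 2 and 1 for RNA polymerase I genes, where 21% of all genes were higher and 21.5% lower.

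MYC was at 762, 737, 707 and 731 CPM in SUM159PT siYES1 libraries, against 501, 541, 581 and 628 CPM in siNS libraries, a log2 rise of 0.38 ± 0.08 without overlap (adjusted p = 0.00151), or 0.32 ± 0.06 without siNS replicate 1 (adjusted p = 8.86e-05). In MDA-MB-231 MYC was at 136, 130, 121 and 129 CPM in siYES1 libraries, against 146, 141, 148 and 138 CPM in siNS libraries, a value of -0.15 ± 0.07 that did not pass (adjusted p = 0.0658) although the groups did not overlap. The lines differed by 0.64 ± 0.10 (adjusted p = 8.24e-05), or 0.52 ± 0.09 without SUM159PT siNS replicate 1 (adjusted p = 0.000133). Of the 11 genes of the MYC network, 2 rose (18.2%) and 4 fell (36.4%) in MDA-MB-231, where 24.9% of all genes rose and 27.5% fell. In SUM159PT 1 rose and 1 fell (9.09% each), where 17.7% of all genes rose and 19% fell. Without siNS replicate 1 the counts there were 1 and 2, beside 21% and 21.5% of all genes. MXD4 and MXI1, which compete with MYC for its partner MAX, fell in MDA-MB-231 by 1.23 ± 0.09 (adjusted p = 7.81e-09) and 1.06 ± 0.10 (adjusted p = 2.32e-07), and MXD3, of the same family, rose by 0.81 ± 0.14 (adjusted p = 0.000118). PRELID1 and RAB24 overlap 40.4% of the exon bases of MXD3. In SUM159PT MXD4 fell by 0.71 ± 0.07 (adjusted p = 9.64e-06), while MXI1 had 0.25 ± 0.15 (adjusted p = 0.205). Leaving out siNS replicate 1, MXD4 fell by 0.71 ± 0.06 (adjusted p = 2.25e-08) and MXI1 had 0.09 ± 0.08 (adjusted p = 0.376). The part of MYC and of its network in the levels of the 40 genes was not tested.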

How the data were processed

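The authors deposited raw integer counts per gene, 1 table for each line. The submitters' processing notes name HISAT2 2.0.5, featureCounts 1.5.0-p3 and hg38. The labels' protocols describe mRNA libraries from poly-A selection. For the counting step, annotation release and strand setting were not given in the sources used here. Column names of the second table carry a prefix that differs from SUM159PT. The titles name SUM159PT and were followed, and no test of line identity was made.

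All 58735 gene IDs matched GENCODE 29, which gave symbols, lengths and overlaps. Each line was fitted on its 8 libraries with R 4.3.3 and edgeR 4.0.16, using TMM scaling, filterByExpr and the quasi-likelihood F test, adjusted by Benjamini-Hochberg over all genes tested, with a threshold of 0.05. The difference between lines was the interaction over all 16 libraries, with TMM scaling over all 16, so it need not equal the difference of the fold changes of the separate fits. The ± of a log2 value is an SE derived as its absolute value over the square root of the F statistic, since the test gives none itself. CPM are TMM-scaled within a line, and CPM per kilobase divide them by the union of exons. Per-library values are given for up to 4 members of each sign with the largest called change per comparison, and for NCL, NPM1, FBL, DKC1, POLR1A and UBTF. MYC was named by the same rule, and values by library of DDX21, UTP20 and MRTO4 were added after the data were seen.

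The members and the other lists were chosen with earlier results of these data known. No 2 libraries of a group were duplicates, since counts differed by 2.21 to 49.6 times the sampling variance. Replicate numbers shared between siYES1 and siNS were checked: deviations of same-numbered libraries correlated at -0.17 to 0.12. Alternatives were RLE and total-count scaling, TMM within each line for the difference, low counts kept or filtered at 1 CPM on average, limma-voom (limma 3.58.1), DESeq2 1.42.0, a replicate block, a joint fit, and leaving out each library. The scripts were tested on simulated data.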

Additional observations from a re-analysis of the deposited data

Results flagged for a closer look

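Of 164 sets of 4 libraries examined, 1 gene in 1 group each, 17 had a library far from the other 3 by Dixon's test, which chance marks in about 1 in 20. In 11 of the 17 this was SUM159PT siNS replicate 1, each time as the highest: LAS1L 40.8, MRTO4 71.0, NCL 765, NHP2 85.6, NIP7 50.5, NOP14 56.9, NOP56 127, NOP58 96.5, POLR1B 92.2, RRN3 62.3 and UTP4 61.4 CPM. The others were DDX10 at 65.4 CPM in MDA-MB-231 siYES1 replicate 4, and in MDA-MB-231 siNS libraries GAR1 at 51.1 and MRTO4 at 129 CPM in replicate 2, UTP20 at 76.7 CPM in replicate 1 (high) and NOP10 at 61.7 CPM in replicate 1 (low). GAR1 was high at 33.1 CPM in SUM159PT siYES1 replicate 3. No cause was tested.

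The change with siYES1 differed between the lines (SUM159PT minus MDA-MB-231, log2, edgeR interaction) for UTP4 by -0.88, NOP58 by -0.69, NOP56 by -0.66, RRP9 and LYAR by -0.64, DKC1 by -0.56, GNL3 by 0.65 and DDX10 by 0.52. YES1 itself differed by -0.66 (adjusted p = 0.00657), with 17.2 CPM in siYES1 and 134 CPM in siNS libraries of SUM159PT and 13.8 CPM in siYES1 and 63.2 CPM in siNS libraries of MDA-MB-231.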

How the results depend on the processing

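The 18 rises in MDA-MB-231 numbered 14 (joint fit) to 25 (without siNS replicates 1 and 2 together, a setting chosen after the data were seen) over all settings, and 17 to 20 with 1 library left out. Rises added in at least 1 of these leave-outs were POLR1A, RRN3, DDX21, NHP2, WDR74, NCL and NPM1. Falls there were 0 to 1 with 1 library left out, the 1 being GNL3 without siNS replicate 3, and 1 without siNS replicates 3 and 4 together. Without siNS replicates 1 and 2 together DDX10 turned to 0.19. In SUM159PT total counts gave 2 rises and 9 falls, no filter 5 falls and limma-voom 1 fall. The falls added were POLR1B, NOP58, NOLC1, UTP4, NAT10, WDR74 and MRTO4 with total counts, and NOP58, UTP4 and MRTO4 with no filter. Without siNS replicate 2 they were UTP4, NAT10 and MRTO4. Leaving out 1 library gave 4 to 16 rises and 0 to 5 falls, and the sum ratio was 1.06 to 1.14, or 0.962 with total counts. UTP20 there was -0.17 to 0.34 with 1 library left out, the highest without siNS replicate 1. For the difference between lines, 1 member was higher under RLE, total counts, DESeq2 and TMM within each line, where DDX10 lost its call. It was 1 to 2 members with 1 library left out. Lower members were 15 with total counts, 11 with no filter, 10 with TMM within each line and 6 to 11 with 1 library left out. Causes were not tested.

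Replicate numbers are shared in the labels, but same-numbered libraries did not deviate together. With a replicate block 19 members were higher in MDA-MB-231 (NHP2 added), 8 higher and 2 lower in SUM159PT (NOC3L lost, adjusted p = 0.0562), and 2 higher and 8 lower in the difference (POLR1A and BOP1 added). Genes called of all tested were 7109, 4961 and 3545 with the block, against 7503, 5321 and 3953 without it.

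NOP2, at no more than 1.03 CPM, has uncertain counts, and the cause of its low level was not tested. Libraries called technical replicates cannot show how the results vary between separate experiments.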
